A study of Danio rerio with 17 samples.

Results

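The genes described here are 42 components of the folding machinery of the endoplasmic reticulum (ER) and of the unfolded protein response (UPR), taken as a named list of gene symbols. No measured value enters the rule, although the list was drawn up with earlier results of these data known. All 42 matched a single symbol of the array annotation, among 20908 genes, and each was read from its brightest probe set by the mean of the 17 arrays. The list holds 4 lumenal chaperones, 4 lectin chaperones, 4 protein disulfide isomerases, 5 ER co-chaperones of the J protein family, 5 UPR sensors and transcription factors, 5 genes of ER-associated degradation, 11 genes of targeting and translocation, 2 secreted UPR products and 2 genes of UFMylation.

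The ER is where secreted and membrane proteins are imported, folded, glycosylated and given their disulfide bonds, and hepatocytes, which secrete most plasma proteins and in laying females the yolk precursors, are rich in it. When unfolded protein accumulates, the sensors ern1 (IRE1), eif2ak3 (PERK) and atf6 raise the genes of chaperones, co-chaperones, translocation factors and degradation. In much of this programme the factors encoded by xbp1 and atf6 act on the target genes.

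Total liver RNA of transgenic zebrafish labelled as female and grown to 6 months was hybridised to ZebGene 1.1 ST arrays. All fish carried liver transgenes driven by the fabp10a promoter, for the hepatitis B virus protein HBx fused to mCherry and for src, with an EGFP marker driven by myl7 in the heart. Both lines, HBx,src and HBx,src,p53-/+ (which also carries the p53-/+ genotype), were studied in the same 3 conditions. DIO+OF fish were overfed with 83 mg of Artemia cysts per fish per day (diet-induced obesity) and gavaged with 300 mg/kg Oligo-Fucoidan (OF), a low molecular weight fucoidan from brown seaweed, DIO fish were overfed alike, and NOR fish were given 6.9 mg per day. DIO and NOR fish are labelled as mock, with no word on what the mock was. There were 3 arrays in each group except the NOR group of HBx,src,p53-/+, with 2. The sources used here do not say whether an array holds 1 fish or a pool, so p-values measure only the spread between these arrays, and their number limits the precision. HBx,src arrays are labelled as batch 1 and HBx,src,p53-/+ arrays as batch 2, so that line and batch cannot be told apart. Contrasts are therefore taken within a line.

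The arrays carried the signal of liver. The median log2 signal of 17 hepatocyte markers lay between 11.12 and 12.83 over all arrays. One array stood apart: replicate 3 of the HBx,src,p53-/+ DIO+OF group had a log2 signal of 2.76 for vtg2, a vitellogenin, against 13.75 to 14.04 in the other 16 arrays, and 5.89 for esr1, the estrogen receptor, against at least 7.84 elsewhere. Vitellogenin is the yolk precursor made by the liver of females, so these values go against the female label of that array, and its sex is in doubt. Counts of members called and median fold changes of the members that rest on this array are given with and without it. Other values include it, such as counts by the methods' threshold, of groups not overlapping and of genes above or below 0. Fold changes of single genes, of parts of the list and of other lists also include it.

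In HBx,src,p53-/+ livers, most of the ER genes were lower with OF. Among the 42, 15 fell in DIO+OF livers against DIO livers and 0 rose (limma, Benjamini-Hochberg over 75212 probe sets, adjusted p under 0.05), where 0.641% of all genes fell. The median log2 fold change of the members was -1.31, against 0.04 over all genes, and 38 of 42 were below 0. By the threshold in the study's methods, at least 2-fold with an unadjusted p under 0.05, 26 were lower and 0 higher, where 2.47% of all genes were lower. In 27 members every DIO+OF array lay below every DIO array, where 9.19% of all genes did. Without replicate 3 of the DIO+OF group, the array with no vitellogenin signal, the median was -1.24 and 6 members fell (calr3a, pdia4, sdf2l1, dnajb11, sec61g and srp14), where 0.698% of all genes were called in either direction. Leaving out DIO+OF replicate 2 gave 5 calls, and leaving out DIO replicate 3 gave 8, where 0.961% and 1.39% of all genes were called in either direction.

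The HBx,src line had the opposite sign. With OF, 38 of 42 members were above 0, with a median log2 fold change of 1.35 against -0.01 over all genes. Only dnajc25, serp1 and ufc1 rose at the adjusted threshold, 3 of 42 where 0.488% of all genes rose, and 0 fell. At least 2-fold with an unadjusted p under 0.05, 28 were higher and 0 lower, where 5.51% of all genes were higher. In 29 members every DIO+OF array lay above every DIO array, where 9.66% of all genes did. These calls depended on single arrays. None of the 3 was left (0 calls) without DIO replicate 2, DIO replicate 3, DIO+OF replicate 2 or DIO+OF replicate 3, or when the arrays of the line were fitted alone, while leaving out DIO+OF replicate 1 gave 20 calls, with 5.01% of all genes then called in either direction. In the fits that gave 0 calls, between 0% and 0.0909% of all genes were called. Over all single arrays left out, the median of the members stayed between 1.02 and 1.63.

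A direct test of the difference between lines (OF effect in HBx,src,p53-/+ minus that in HBx,src) called 18 of 42 members, all 18 below 0, where 0.655% of all genes were called below 0. The median difference was -2.51, against 0.03 over all genes, and all 42 members had a difference below 0. The contrasts of the lines share no array. In 34 of 42 members (81%) the log2 fold change with OF was above 0 in HBx,src and below 0 in HBx,src,p53-/+, a pattern of 22.4% of all genes. Without the array that had no vitellogenin signal, 5 members passed (dnajc25, srp14, serp1, creld2 and ufc1), where 0.177% of all genes were called in either direction, and the median difference was -2.39. Leaving out other single arrays gave between 4 calls (without HBx,src DIO replicate 2 or DIO+OF replicate 3) and 28 calls (without HBx,src DIO+OF replicate 1). In these fits 0.0957%, 0.182% and 4.29% of all genes were called in either direction, against 1.3% with all arrays.

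**Figure D1:**
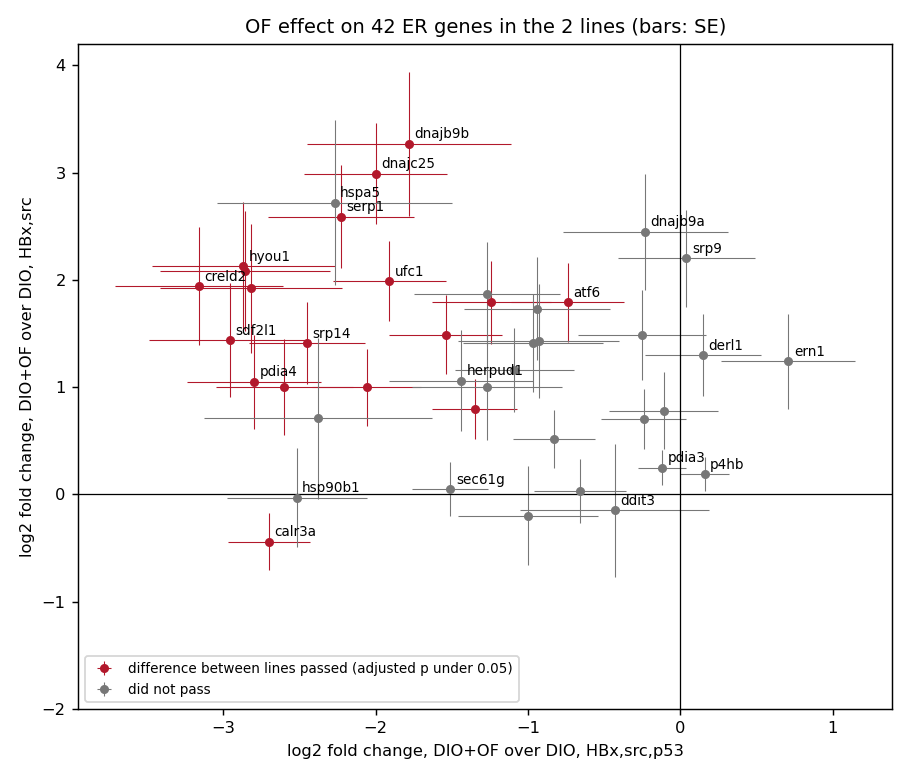
Log2 fold change of each of the 42 genes with OF (DIO+OF over DIO) in HBx,src,p53-/+ livers on the horizontal axis and in HBx,src livers on the vertical axis, with standard errors as bars. Most genes, 34 of 42, lie at the upper left, higher with OF in HBx,src and lower in HBx,src,p53-/+, and the 18 red genes passed the test of the difference between lines.

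Overfeeding alone moved the members less. In HBx,src livers 38 of 42 were below 0 in DIO against NOR, with a median log2 fold change of -0.88 (-0.02 over all genes), but 0 passed limma's adjusted threshold, where 0% of all genes fell. An unadjusted p under 0.05 was found for 18 of the 42, where 1581 of 20908 genes had one. An unmoderated test with the same adjustment called 0 members in every contrast, also where limma called 23, so its 0 adds nothing here. At least 2-fold with an unadjusted p under 0.05, 13 were lower, where 1.89% of all genes were, and in 22 every DIO array lay below every NOR array, where 7.73% did. Of the 42, 39 were below 0 in HBx,src,p53-/+ livers, with a median of -0.65 (-0.01 over all genes). Of these dnajb9a and srp9 fell, 2 of 42, where 1.8% of all genes fell. Fits that left out either NOR array of this line called fewer members and fewer of all genes, and they rest on a lone NOR array. By the methods' threshold 8 were lower, where 6.59% of all genes were, and in 26 every DIO array lay below every NOR array, where 22.7% did. With only 2 NOR arrays in this line, groups separate more readily. In 37 of 42 members the diet effect was below 0 in both lines, against 30.2% of all genes. The difference of the diet effects between lines passed for 0 members by limma, where 0.043% of all genes were called below 0. By limma 4 of the 42 members had an unadjusted p under 0.05 for it, where 2187 of 20908 genes did.

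DIO+OF livers were also set against NOR livers. In HBx,src,p53-/+, 23 of 42 members fell and 0 rose, where 2.9% of all genes fell, with a median log2 fold change of -2.06 (0.03 over all genes). In the same contrast 35 were at least 2-fold lower with an unadjusted p under 0.05, where 7.13% of all genes were, and 38 lay below NOR in every array, where 19% of all genes did. Without the array that had no vitellogenin signal 18 fell, with a median of -1.95, where 3.29% of all genes were called in either direction. Fits that left out either NOR array called fewer members and fewer of all genes, and they rest on a lone NOR array. Over all single arrays left out, the median of the members stayed between -2.19 and -1.86. In HBx,src the median was 0.34 (-0.02 over all genes), 29 of 42 were above 0, and 0 passed by limma, where 0.11% of all genes rose. There 11 of the 42 had an unadjusted p under 0.05, where 2205 of 20908 genes did. These contrasts use the same DIO+OF arrays as the OF contrasts, and DIO arrays enter the diet and OF contrasts with opposite sign, so the comparisons within a line are not independent of each other.

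**Figure D2:**
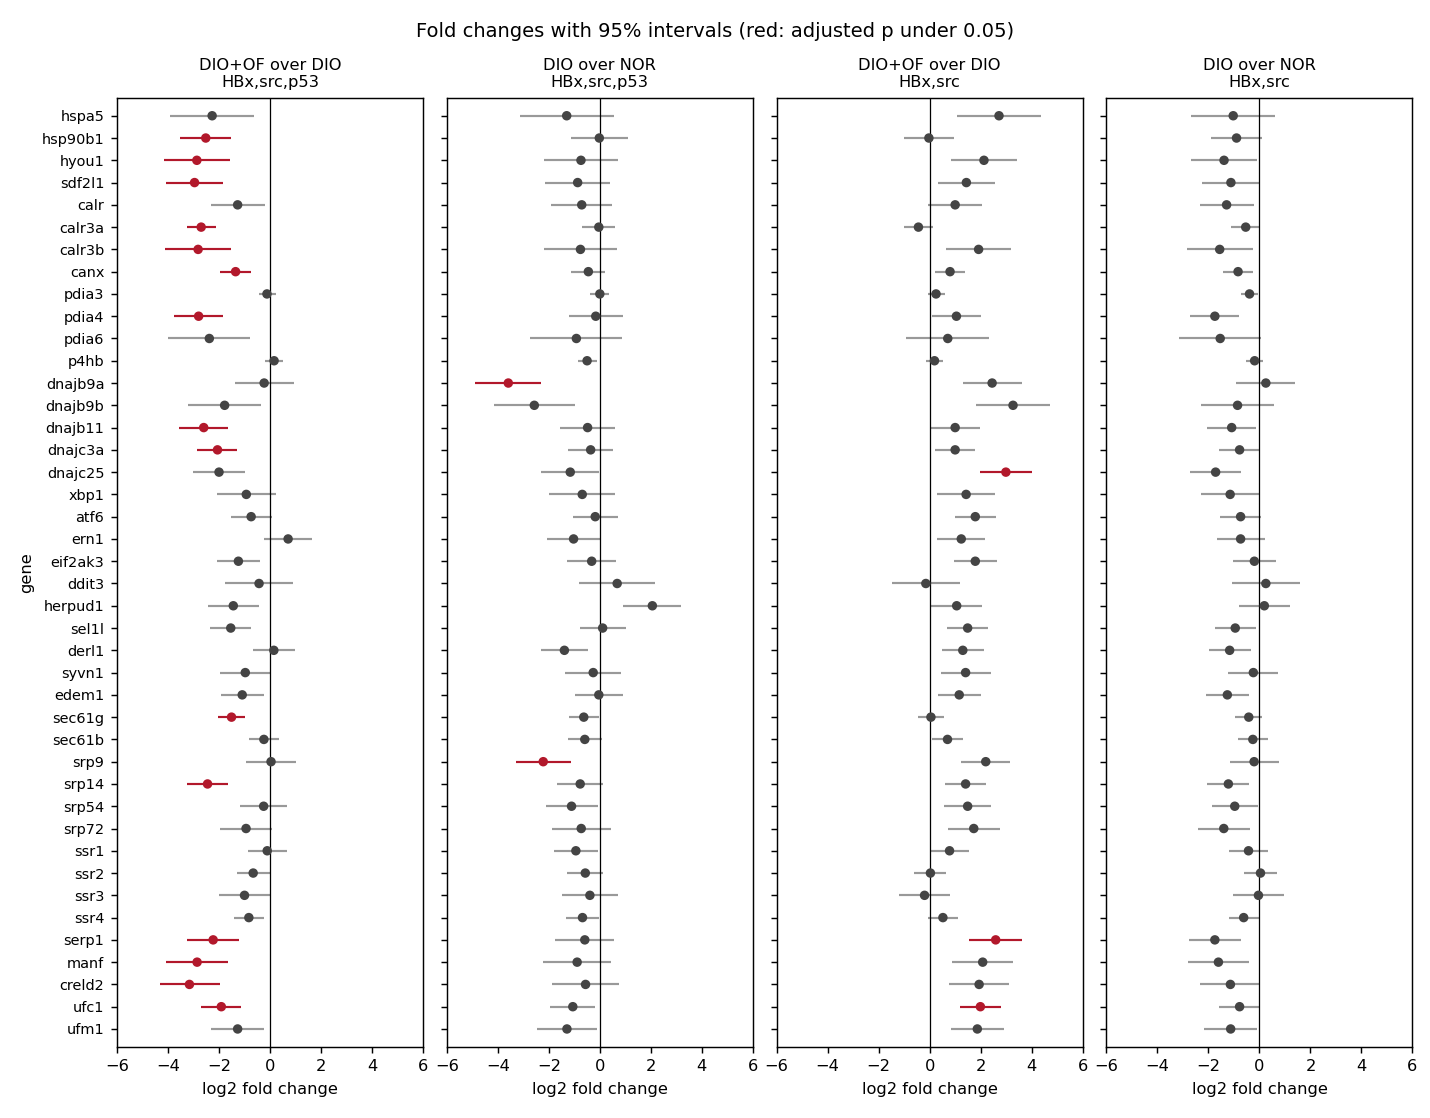
Log2 fold change of each member with its 95% interval, in 4 panels, for DIO+OF over DIO and DIO over NOR in HBx,src,p53-/+ (left pair) and HBx,src livers (right pair), with red for an adjusted p under 0.05. The 15 red genes for OF in HBx,src,p53-/+ have negative fold changes, and the 3 red genes for OF in HBx,src positive ones.

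The median log2 signal of the 42 genes in each array gave the same order. It was 8.27, 7.38 and 7.32 in DIO+OF livers of HBx,src,p53-/+, against 9.12, 9.48 and 9.65 in DIO livers and 10.10 and 10.35 in NOR livers. These groups did not overlap. The HBx,src medians were 8.28, 9.58 and 9.04 in DIO+OF livers, against 7.97, 7.05 and 7.40 in DIO livers and 8.47, 8.08 and 9.32 in NOR livers. There DIO+OF lay above DIO in every array, DIO below NOR in every array, and DIO+OF overlapped NOR. The SD of this median between arrays of a group, pooled over groups, was 0.51. Fewer cells of a type and less RNA per cell cannot be told apart in such bulk RNA.

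**Figure D3:**
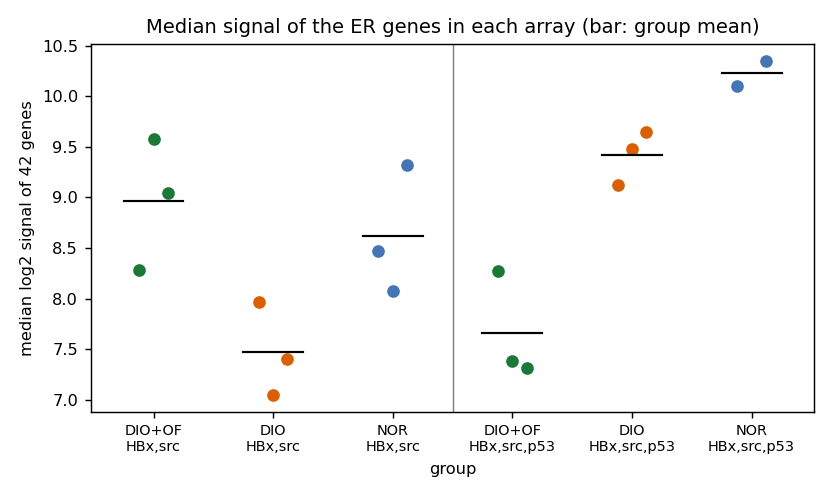
Median log2 signal of the 42 genes in each array (points) with the mean of each group (bars), for DIO+OF, DIO and NOR livers of HBx,src (left) and HBx,src,p53-/+ (right). DIO+OF arrays lie below DIO arrays in HBx,src,p53-/+ (8.27, 7.38 and 7.32 against 9.12, 9.48 and 9.65) and above them in HBx,src.

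Exocrine pancreas, which lies along the gut beside the liver and is rich in ER, left signal in these arrays. Of 17 pancreas markers 0 passed with OF in either line (limma), with an unadjusted p under 0.05 for 0 in HBx,src,p53-/+ and 1 in HBx,src, and 16 were below 0 in HBx,src,p53-/+ and 17 in HBx,src. The log2 of their summed signal ranged from 10.71 to 14.72 in DIO+OF livers and from 12.64 to 14.26 in DIO livers of HBx,src,p53-/+. The HBx,src range was 8.62 to 9.70 in DIO+OF livers and 9.52 to 11.87 in DIO livers. The median log2 fold change of the pancreas list with OF was -0.82 in HBx,src,p53-/+ and -1.02 in HBx,src. That of the members was -1.31 in HBx,src,p53-/+ and 1.35 in HBx,src. Within the HBx,src,p53-/+ DIO+OF group replicate 1 had the highest pancreas median (9.05, against 6.01 and 5.28) and the highest median of the ER genes (8.27). In this line both were also highest in the same array in DIO (replicate 3, 8.76 and 9.65) and NOR (replicate 2, 6.91 and 10.35). Each HBx,src group went the other way, its array lowest in pancreas being highest in ER genes. These were NOR replicate 3 (3.65 and 9.32), DIO replicate 1 (3.74 and 7.97) and DIO+OF replicate 2 (2.87 and 9.58). Among other markers, kdrl and cdh5, 2 of 9 endothelial genes, rose with OF in HBx,src,p53-/+ (log2 fold changes 1.32 and 1.37), where 358 of 20908 genes rose. Of these 9 endothelial genes 5 were above 0 and 4 below 0. In the same contrast zp2.5, nanog and gdf9, 3 of 17 ovary and oocyte genes, fell, where 0.641% of all genes fell, and 15 of the 17 were below 0. Of 17 hepatocyte markers ttr, a plasma carrier of thyroid hormone, rose there (0.98 ± 0.20, adjusted p = 0.0289), and 15 were above 0, with a median of 0.43, while 4 were above 0 in HBx,src, with a median of -0.14. The log2 summed signal of the hepatocyte list was 16.31 to 16.80 in DIO+OF and 16.10 to 16.29 in DIO livers of HBx,src,p53-/+, and 15.83 to 16.20 in DIO+OF and 16.10 to 16.21 in DIO livers of HBx,src. In HBx,src apoa4b.1, 1 of 8 intestine markers, fell with OF (-1.84 ± 0.30, adjusted p = 0.0258). In HBx,src,p53-/+ the log2 summed signal of the endothelial list was 9.94 to 10.15 in DIO+OF and 9.86 to 9.91 in DIO livers. That of the ovary list was 6.41 to 6.71 in DIO+OF and 6.72 to 8.82 in DIO livers of this line. The endothelial sum in HBx,src was 8.81 to 9.16 in DIO+OF and 9.08 to 9.53 in DIO livers. The ovary sum in HBx,src was 6.14 to 6.35 in DIO+OF and 6.51 to 6.9 in DIO livers. The log2 signal of gdf9, made by oocytes, averaged 1.34 in DIO+OF and 2.17 in DIO livers of HBx,src,p53-/+. The part of these cell types in the result was not tested.

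The lumenal chaperones bind nascent chains directly. hspa5 (BiP), the ER Hsp70 and the classic UPR target, had log2 signals of 8.92, 7.84 and 7.61 in DIO+OF livers of HBx,src,p53-/+, against 10.05, 10.46 and 10.66 in DIO livers and 11.77 and 11.62 in NOR livers. The 3 conditions did not overlap. The OF contrast of hspa5 was -2.27 ± 0.77 on the log2 scale (SE, adjusted p = 0.171), short of the threshold, while DIO+OF against NOR was -3.57 ± 0.86 (adjusted p = 0.0354), an 11.9-fold lower level. In HBx,src hspa5 had 9.05, 11.28 and 11.57 in DIO+OF livers, against 9.37, 6.38 and 7.99 in DIO livers. Here replicate 1 of DIO+OF lay below the highest DIO array, and the log2 fold change was 2.72 ± 0.77 (adjusted p = 0.144).

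hyou1, an Hsp110-type nucleotide exchange factor for BiP, had 7.98, 6.34 and 6.69 in DIO+OF livers of HBx,src,p53-/+, against 9.82, 9.41 and 10.40 in DIO livers. It fell by 2.87 ± 0.60 (adjusted p = 0.0312), while its second, dimmer probe set did not pass (-1.76 ± 0.72, adjusted p = 0.265). In HBx,src its values were 7.95, 10.37 and 10.12 in DIO+OF livers, against 7.67, 6.92 and 7.45 in DIO livers. They do not overlap either, in the other direction, at 2.13 ± 0.60 on the log2 scale (adjusted p = 0.144) and a difference between lines of -5.00 ± 0.85 (adjusted p = 0.0235), which the second probe set missed (-4.36 ± 1.02, adjusted p = 0.0679). sdf2l1, which forms a complex with the J protein ERdj3 in mammals, had 5.44, 4.29 and 5.07 in DIO+OF livers of HBx,src,p53-/+, against 8.09, 7.82 and 7.78 in DIO livers, and fell by 2.96 ± 0.53 (adjusted p = 0.0142). Its HBx,src values overlapped (5.82, 8.05 and 8.09 in DIO+OF livers, against 6.22, 5.59 and 5.83 in DIO livers), and the lines differed by -4.40 ± 0.74 (adjusted p = 0.0234).

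hsp90b1 (GRP94), the ER Hsp90, departed from this pattern. It had 9.62, 8.48 and 8.65 in DIO+OF livers of HBx,src,p53-/+, against 11.32, 11.46 and 11.53 in DIO livers and 11.34 and 11.57 in NOR livers. DIO and NOR livers overlapped and DIO+OF livers lay below both, with a fall of 2.52 ± 0.46 against DIO (adjusted p = 0.0178) and a diet contrast of -0.02 ± 0.52. In HBx,src the OF contrast was -0.03 ± 0.46, with 8.76, 10.98 and 10.91 in DIO+OF livers, against 10.15, 10.11 and 10.46 in DIO livers. A second probe set of hsp90b1 also fell in HBx,src,p53-/+ (-3.36 ± 0.47, adjusted p = 0.00361).

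Lectin chaperones hold glycoproteins while they fold. calr3a, a calreticulin gene, had the smallest p of all members for OF in HBx,src,p53-/+, with 8.65, 7.91 and 8.57 in DIO+OF livers, against 10.99, 10.94 and 11.29 in DIO livers and 11.12 and 11.10 in NOR livers. Its fall was 2.70 ± 0.27 (adjusted p = 0.000989), with no overlap and a diet contrast of -0.04 ± 0.30. Like hsp90b1 it was not higher with OF in HBx,src, where its values were 9.07, 10.01 and 9.70 in DIO+OF livers, against 9.77, 9.86 and 10.48 in DIO livers (log2 fold change -0.44 ± 0.27, adjusted p = 0.597). The lines still differed for calr3a, by -2.25 ± 0.38 (adjusted p = 0.0232), and a second probe set fell as well (-1.97 ± 0.25, adjusted p = 0.00185).

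calr3b, its paralog, did show opposite signs. Its values in HBx,src,p53-/+ were 9.02, 7.36 and 8.45 in DIO+OF livers, against 10.42, 11.42 and 11.44 in DIO livers, a fall of 2.82 ± 0.60 (adjusted p = 0.0332). Its HBx,src values were 8.99, 11.15 and 11.18 in DIO+OF livers, against 8.97, 7.74 and 8.85 in DIO livers (1.92 ± 0.60, adjusted p = 0.191), and the lowest DIO+OF array cleared the highest DIO array only narrowly. The difference between lines was -4.74 ± 0.85 (adjusted p = 0.0278). canx (calnexin), the membrane-bound lectin, had 9.24, 8.70 and 8.59 in DIO+OF livers of HBx,src,p53-/+, against 10.18, 10.12 and 10.29 in DIO livers, and fell by 1.35 ± 0.28 (adjusted p = 0.0296). Of its other probe sets 1 fell (-2.11 ± 0.34, adjusted p = 0.00831) and 1 did not pass (-1.21 ± 0.34, adjusted p = 0.0983). The HBx,src contrast of canx was 0.80 ± 0.28 (adjusted p = 0.256), and the lines differed by -2.15 ± 0.39 (adjusted p = 0.0299). The third calreticulin gene, calr, had a log2 fold change of -1.27 ± 0.49 with OF in HBx,src,p53-/+ and 1.00 ± 0.49 in HBx,src (adjusted p = 0.238 and 0.473). Cross-hybridisation between the calreticulin genes was not tested.

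The protein disulfide isomerases split. pdia4 (ERp72) had 7.76, 6.62 and 7.36 in DIO+OF livers of HBx,src,p53-/+, against 9.92, 9.87 and 10.33 in DIO livers and 9.92 and 10.47 in NOR livers. DIO and NOR livers overlapped for pdia4 and DIO+OF livers lay far below, with a fall of 2.80 ± 0.44 (adjusted p = 0.00751), a 6.94-fold lower level. HBx,src livers gave pdia4 8.43, 10.41 and 10.25 in DIO+OF livers, against 8.95, 8.57 and 8.43 in DIO livers and 10.06, 10.33 and 10.81 in NOR livers. Here the DIO values lay below all NOR values (-1.75 ± 0.44, unadjusted p = 0.00156 and adjusted p = 0.476, limma). The OF contrast was 1.05 ± 0.44 (adjusted p = 0.381), and the lines differed in the OF effect by -3.84 ± 0.63 (adjusted p = 0.0215). pdia6 (P5), read from the brightest of its 3 probe sets, was spread widely, with -2.38 ± 0.75 for OF in HBx,src,p53-/+ (adjusted p = 0.142). It fell only against NOR (-3.31 ± 0.84, adjusted p = 0.0445), a call kept in 4 of the 17 fits that each left out 1 array.

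The isomerases pdia3 (ERp57), which partners the lectin chaperones, and p4hb (PDI itself), also a subunit of collagen prolyl 4-hydroxylase, had small contrasts with OF. p4hb had 11.85, 11.59 and 11.89 in DIO+OF livers of HBx,src,p53-/+, against 11.50, 11.56 and 11.80 in DIO livers. These overlapped, and the contrast of 0.16 ± 0.16 had a 95% interval of -0.18 to 0.49. For pdia3 it was -0.12 ± 0.16, with an interval of -0.45 to 0.22. In HBx,src the OF contrasts of p4hb and pdia3 were 0.19 ± 0.16 and 0.25 ± 0.16.

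Co-chaperones with a J domain pass clients to BiP and drive its ATPase. dnajc25, a J protein of the membrane, had the largest called rise with OF in HBx,src, with 7.65, 8.12 and 8.28 in DIO+OF livers, against 5.41, 4.28 and 5.41 in DIO livers and 6.62, 6.16 and 7.48 in NOR livers. All DIO+OF arrays lay above every DIO and NOR array, and the OF contrast was 2.99 ± 0.47 (adjusted p = 0.0226), a 7.94-fold higher level. HBx,src,p53-/+ livers had 7.13, 5.56 and 5.97 in DIO+OF livers, against 7.46, 8.44 and 8.76 in DIO livers and 9.27 and 9.49 in NOR livers. Every DIO+OF array lay below every DIO array, with -2.0 ± 0.47 (adjusted p = 0.0515), just outside the threshold. For dnajc25 the difference between lines was -4.99 ± 0.66 (adjusted p = 0.00857).

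dnajb9a and dnajb9b, both ERdj4 genes and targets of the xbp1 branch in mammals, had the largest diet contrasts in HBx,src,p53-/+. There dnajb9a had 3.69, 3.04 and 3.42 in DIO+OF livers, 4.44, 2.32 and 4.07 in DIO livers and 7.32 and 7.09 in NOR livers. The NOR arrays stood above all others, and DIO+OF overlapped DIO. dnajb9a fell by 3.59 ± 0.60 in DIO against NOR (adjusted p = 0.00864, 12.1-fold), while its OF contrast was -0.23 ± 0.54. In HBx,src the diet contrast was 0.25 ± 0.54, and the difference of diet effects was -3.84 ± 0.81 (adjusted p = 0.0946), past no threshold. NOR and DIO signals of dnajb9a in HBx,src were dim, near the array medians over all genes (2.83 to 2.96 in these groups). Whether a floor hid a fall in that line was not tested. There OF gave 4.31, 4.93 and 5.87 in DIO+OF livers, against 2.36, 3.52 and 1.88 in DIO livers and 2.67, 1.98 and 2.37 in NOR livers, a contrast of 2.45 ± 0.54 against DIO (adjusted p = 0.0651) and of 2.70 ± 0.54 against NOR (unadjusted p = 0.000203 and adjusted p = 0.0958, limma).

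dnajb9b had 5.84, 4.62 and 4.84 in DIO+OF livers of HBx,src,p53-/+, against 6.41, 6.97 and 7.27 in DIO livers and 9.44 and 9.45 in NOR livers. The 3 conditions did not overlap, and DIO+OF fell against NOR by 4.35 ± 0.75 (adjusted p = 0.00776, 20.4-fold). In HBx,src dnajb9b had 6.43, 7.81 and 8.90 in DIO+OF livers, against 5.32, 3.40 and 4.61 in DIO livers, with 3.27 ± 0.67 (adjusted p = 0.0546), and the OF effects of the lines differed by -5.05 ± 0.95 (adjusted p = 0.0321). dnajb11 (ERdj3), a soluble BiP partner, had 8.28, 6.03 and 7.13 in DIO+OF livers of HBx,src,p53-/+, against 9.38, 9.79 and 10.05 in DIO livers, and fell by 2.60 ± 0.45 (adjusted p = 0.0119). dnajc3a (P58IPK), known in mammals as an inhibitor of PERK, had 8.54, 7.25 and 7.29 in DIO+OF livers, against 9.41, 10.02 and 9.84 in DIO livers, and fell by 2.06 ± 0.36 (adjusted p = 0.0141). Both were apart from DIO livers in the other direction in HBx,src, each with 1.00 on the log2 scale, and the lines differed by -3.60 ± 0.63 for dnajb11 and -3.06 ± 0.52 for dnajc3a (adjusted p = 0.0250 and 0.0234).

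**Figure D4:**
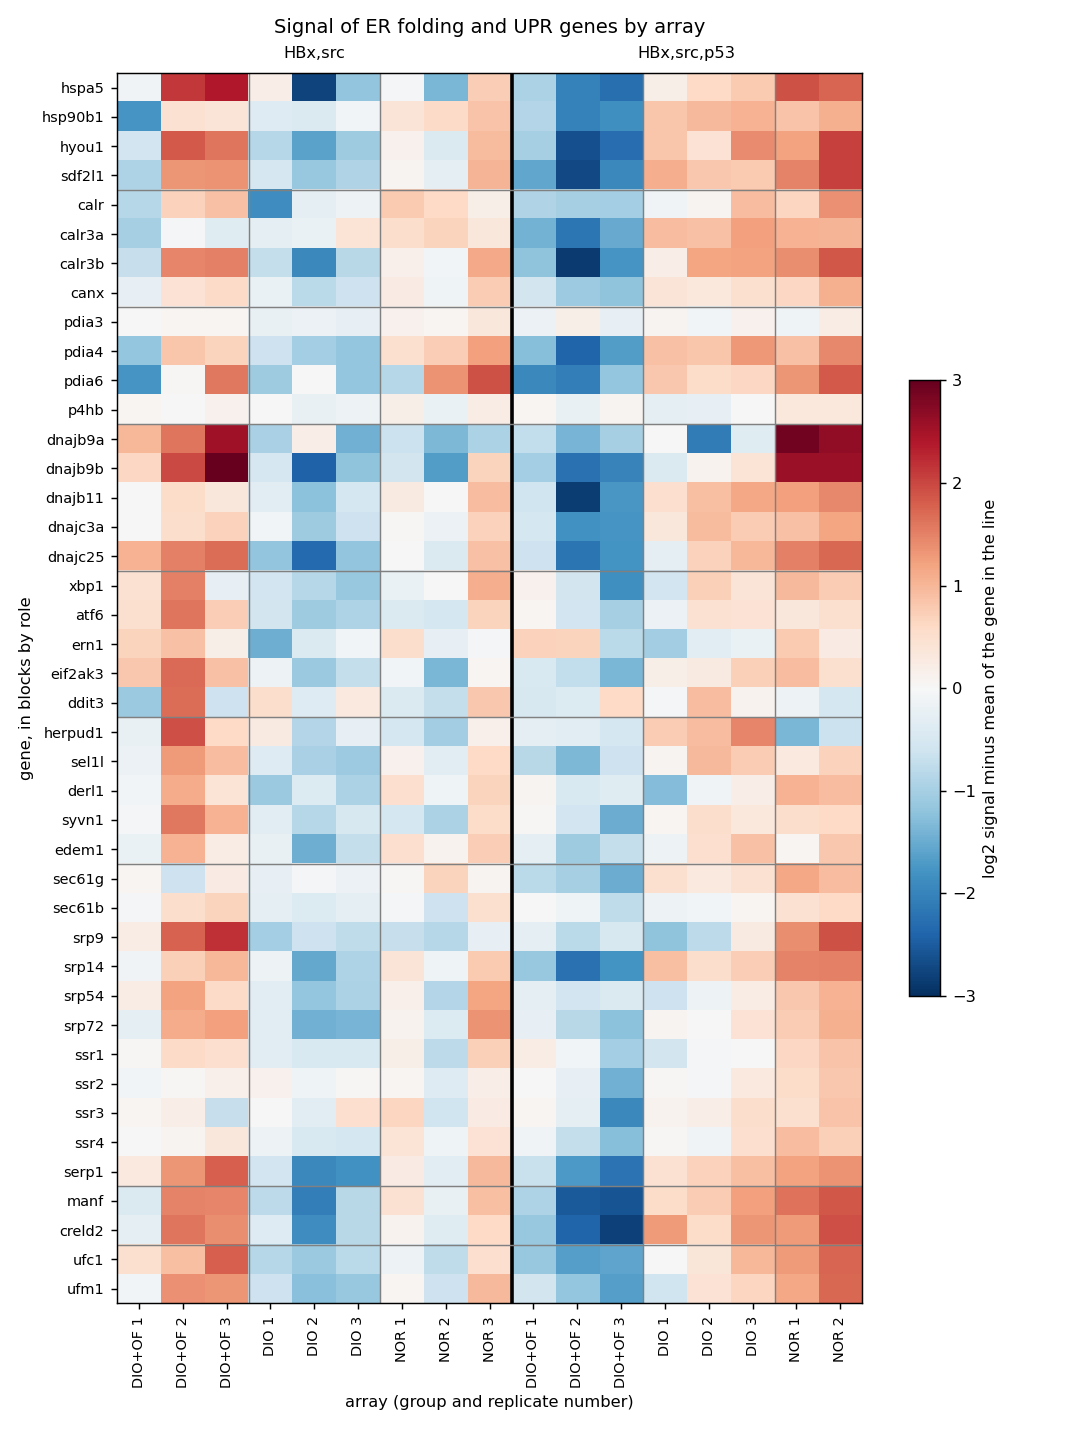
Heat map of the log2 signal of each gene in each array, relative to the gene's mean over the arrays of its line, with DIO+OF, DIO and NOR arrays in order for HBx,src (left) and HBx,src,p53-/+ (right) and genes in blocks by role (lumenal chaperones at the top). Red is above and blue below the mean of the line, with the scale cut at 3 log2 units on each side, and pdia3 and p4hb are pale throughout while hspa5, dnajb9b and creld2 change strongly in colour.

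Of the UPR sensors and factors themselves, 0 of 5 passed the OF or diet tests in either line, although 2 differed between lines. With OF an unadjusted p under 0.05 was found for 1 of 5 in HBx,src,p53-/+ and 4 of 5 in HBx,src, where 4038 and 3340 of 20908 genes had one. The median OF contrast over the 5 was -0.74 in HBx,src,p53-/+ and 1.43 in HBx,src. atf6 had 10.00, 9.35 and 8.94 in DIO+OF livers of HBx,src,p53-/+, against 9.75, 10.38 and 10.36 in DIO livers, which overlapped (-0.74 ± 0.37, adjusted p = 0.383). HBx,src livers had 9.09, 10.21 and 9.34 in DIO+OF livers, against 8.06, 7.54 and 7.67 in DIO livers, with no overlap (1.79 ± 0.37, adjusted p = 0.0550). A second, dimmer probe set of atf6 rose there (1.50 ± 0.28, adjusted p = 0.0397), and the lines differed for the first by -2.53 ± 0.52 (adjusted p = 0.0449).

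eif2ak3 had 6.04, 5.75 and 5.12 in DIO+OF livers of HBx,src,p53-/+, against 6.66, 6.76 and 7.22 in DIO livers. In HBx,src the values were 5.61, 6.51 and 5.67 in DIO+OF livers, against 4.64, 3.69 and 4.09 in DIO livers. Neither pair of groups overlapped, with -1.24 ± 0.39 in HBx,src,p53-/+ and 1.79 ± 0.39 in HBx,src (adjusted p = 0.146 and 0.0661), and the difference of -3.03 ± 0.56 passed (adjusted p = 0.0300), but not that of a second probe set (-1.63 ± 0.53, adjusted p = 0.188). ern1 did not follow. It had 8.27, 8.25 and 6.76 in DIO+OF livers of HBx,src,p53-/+, against 6.53, 7.24 and 7.38 in DIO livers (0.71 ± 0.44, adjusted p = 0.497), and 1.24 ± 0.44 in HBx,src. xbp1 gave -0.93 ± 0.53 with OF in HBx,src,p53-/+ and 1.43 ± 0.53 in HBx,src (adjusted p = 0.459 and 0.296), and the arrays do not tell its spliced form from the unspliced one in the values used here. ddit3 (CHOP), the death-linked factor downstream of PERK, had 6.00, 6.07 and 7.09 in DIO+OF livers of HBx,src,p53-/+, against 6.45, 7.41 and 6.60 in DIO livers and 6.33 and 5.95 in NOR livers. DIO+OF and DIO livers overlapped in both lines, with OF contrasts of -0.43 ± 0.62 in HBx,src,p53-/+ and -0.15 ± 0.62 in HBx,src.

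ER-associated degradation returns misfolded protein to the cytosol for the proteasome. With OF 0 of its 5 genes passed in either line, while 3 were at least 2-fold lower with an unadjusted p under 0.05 in HBx,src,p53-/+ and 5 higher in HBx,src. By that threshold 2.47% of all genes were lower in HBx,src,p53-/+ and 5.51% higher in HBx,src. sel1l, the adaptor of the membrane ubiquitin ligase, had 6.88, 6.37 and 7.08 in DIO+OF livers of HBx,src,p53-/+, against 7.80, 8.69 and 8.47 in DIO livers (-1.54 ± 0.37, adjusted p = 0.0587). Values in HBx,src were 6.97, 8.42 and 8.06 in DIO+OF livers, against 6.76, 6.17 and 6.05 in DIO livers (1.49 ± 0.37, adjusted p = 0.102). Both pairs were apart, and the difference between lines was -3.03 ± 0.53 (adjusted p = 0.0245). syvn1 (HRD1), the ligase, and edem1, a mannosidase-like lectin that picks glycoprotein clients, gave -0.97 ± 0.46 and -1.09 ± 0.39 in HBx,src,p53-/+, against 1.41 ± 0.46 and 1.16 ± 0.39 in HBx,src, with no call.

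herpud1, a UPR-induced scaffold of the ligase, was the 1 member at least 2-fold higher in DIO than in NOR livers of HBx,src,p53-/+ with an unadjusted p under 0.05. It had 8.85, 9.02 and 9.54 in DIO livers, against 6.72 and 7.44 in NOR livers, with a contrast of 2.06 ± 0.53 (adjusted p = 0.0531). In DIO+OF livers herpud1 was 7.78, 7.76 and 7.56, below every DIO array and above both NOR arrays (OF contrast -1.44 ± 0.47, adjusted p = 0.158). The difference of its diet effects between lines was 1.86 ± 0.71 (unadjusted p = 0.0197 and adjusted p = 0.362, limma). derl1, a channel component, was not lower with OF in HBx,src,p53-/+ (0.15 ± 0.38) and was -1.39 ± 0.43 in DIO against NOR (adjusted p = 0.102).

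Among targeting and translocation genes, serp1 (RAMP4), which binds the translocon and stabilises new membrane proteins under stress, changed in both lines and in opposite directions. It had 9.72, 8.66 and 8.17 in DIO+OF livers of HBx,src,p53-/+, against 10.86, 11.09 and 11.30 in DIO livers, and fell by 2.23 ± 0.48 (adjusted p = 0.0353). In HBx,src it had 9.38, 10.41 and 10.88 in DIO+OF livers, against 8.50, 7.15 and 7.26 in DIO livers, and rose by 2.59 ± 0.48 (adjusted p = 0.0385). No array overlapped in either line, and the difference was -4.82 ± 0.68 (adjusted p = 0.0125).

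The signal recognition particle subunits did not move as one. srp14 had 5.93, 4.84 and 5.29 in DIO+OF livers of HBx,src,p53-/+, against 7.98, 7.60 and 7.81 in DIO livers, and fell by 2.45 ± 0.38 (adjusted p = 0.00639). The HBx,src contrast was 1.41 ± 0.38 (adjusted p = 0.127), and the lines differed by -3.85 ± 0.54 (adjusted p = 0.0112). srp9, which pairs with srp14 in the Alu domain of the particle, had 6.54, 6.02 and 6.35 in DIO+OF livers of HBx,src,p53-/+, 5.62, 6.06 and 7.11 in DIO livers and 8.23 and 8.75 in NOR livers. DIO+OF and DIO overlapped (0.04 ± 0.45), and the fall of srp9 lay in DIO against NOR (-2.22 ± 0.50, adjusted p = 0.0332). In HBx,src srp9 had 5.81, 7.35 and 7.77 in DIO+OF livers, against 4.56, 4.95 and 4.81 in DIO livers and 4.88, 4.73 and 5.34 in NOR livers, above both in every array (2.2 ± 0.45 against DIO, adjusted p = 0.0540). srp54, the GTPase that reads the signal sequence, and srp72 gave -0.25 ± 0.42 and -0.94 ± 0.48 with OF in HBx,src,p53-/+ and 1.49 ± 0.42 and 1.73 ± 0.48 in HBx,src, with no call.

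sec61g, the gamma subunit of the translocon channel, had 7.03, 6.82 and 6.33 in DIO+OF livers of HBx,src,p53-/+, against 8.31, 8.12 and 8.28 in DIO livers, and fell by 1.51 ± 0.25 (adjusted p = 0.00870). HBx,src values of sec61g were 7.04, 6.37 and 7.24 in DIO+OF livers, against 6.75, 6.93 and 6.80 in DIO livers (0.05 ± 0.25), and the difference between lines was -1.56 ± 0.35 (adjusted p = 0.0554), outside the threshold. The beta subunit gene sec61b gave -0.24 ± 0.28 in HBx,src,p53-/+ and 0.70 ± 0.28 in HBx,src. The 4 genes of the translocon-associated complex, ssr1 to ssr4, had OF contrasts from -1.0 to -0.11 in HBx,src,p53-/+ and from -0.20 to 0.78 in HBx,src, with no call. Against NOR only ssr4 of them fell in DIO+OF livers of HBx,src,p53-/+ (-1.51 ± 0.30, adjusted p = 0.0167).

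Both secreted UPR products were among the members that differed most between lines. creld2 had 6.00, 4.72 and 4.32 in DIO+OF livers of HBx,src,p53-/+, against 8.40, 7.67 and 8.45 in DIO livers and 8.40 and 9.06 in NOR livers. It fell by 3.16 ± 0.55 (adjusted p = 0.0124), an 8.93-fold lower level, with no overlap. In HBx,src creld2 had 6.73, 8.61 and 8.40 in DIO+OF livers, against 6.62, 5.15 and 6.17 in DIO livers (1.94 ± 0.55, adjusted p = 0.145), and the lines differed by -5.10 ± 0.77 (adjusted p = 0.0168). manf, a neurotrophic factor retained in the ER and released under stress, had 8.14, 6.55 and 6.48 in DIO+OF livers of HBx,src,p53-/+, against 9.63, 9.84 and 10.29 in DIO livers, and fell by 2.86 ± 0.56 (adjusted p = 0.0235). In HBx,src manf was 2.08 ± 0.56 (adjusted p = 0.128), with all 3 DIO+OF arrays above the DIO arrays, and the difference was -4.94 ± 0.79 (adjusted p = 0.0212).

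UFMylation attaches the ubiquitin-like protein encoded by ufm1 to ribosomes at the ER, with ufc1 as the conjugating enzyme. ufc1 had 3.56, 3.04 and 3.13 in DIO+OF livers of HBx,src,p53-/+, against 4.69, 5.07 and 5.70 in DIO livers, and fell by 1.91 ± 0.37 (adjusted p = 0.0223). In HBx,src it had 4.19, 4.61 and 5.51 in DIO+OF livers, against 2.85, 2.60 and 2.90 in DIO livers, and rose by 1.99 ± 0.37 (adjusted p = 0.0385). With serp1 it was 1 of 2 members called in both lines, and the lines differed by -3.90 ± 0.52 (adjusted p = 0.00857). ufm1 gave -1.27 ± 0.48 in HBx,src,p53-/+ and 1.87 ± 0.48 in HBx,src (adjusted p = 0.224 and 0.110), and fell in DIO+OF against NOR in HBx,src,p53-/+ (-2.56 ± 0.54, adjusted p = 0.0201).

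**Figure D5:**
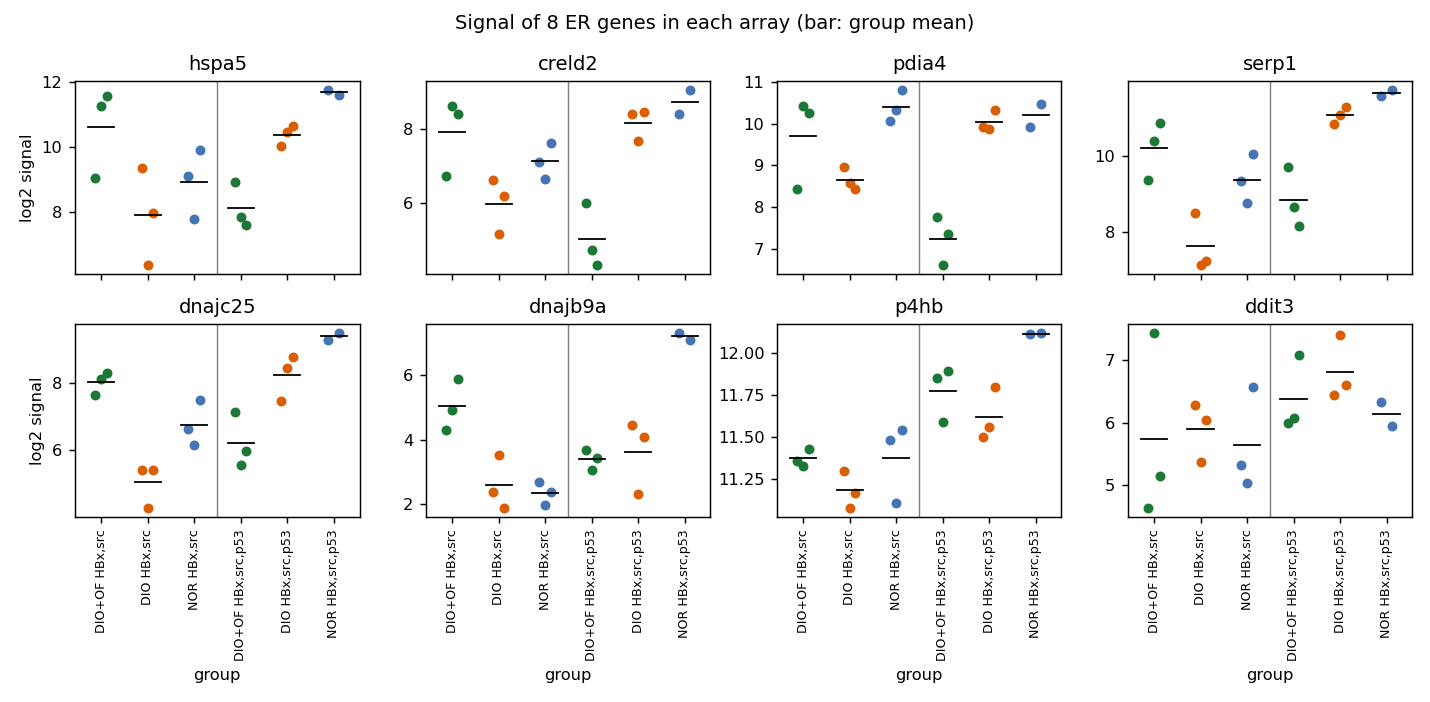
Log2 signal of hspa5, creld2, pdia4, serp1, dnajc25, dnajb9a, p4hb and ddit3 in each array (points) with group means (bars), for DIO+OF, DIO and NOR livers of HBx,src (left of the line) and HBx,src,p53-/+ (right). Each panel has its own axis, which spans under 2 log2 units for p4hb, and the lowest group mean of creld2 and pdia4 is in HBx,src,p53-/+ DIO+OF livers and that of serp1 in HBx,src DIO livers, while dnajb9a is highest in HBx,src,p53-/+ NOR livers.

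In the comparisons with no call, the members with the smallest p were close to those above. For diet in HBx,src these were pdia4, dnajc25 (-1.72 ± 0.47, adjusted p = 0.521), serp1 (-1.75 ± 0.48, adjusted p = 0.530) and srp14 (-1.22 ± 0.38, adjusted p = 0.615). For DIO+OF against NOR in HBx,src these were dnajb9a, srp9 (1.99 ± 0.45, adjusted p = 0.148), eif2ak3 (1.60 ± 0.39, adjusted p = 0.201) and calr3a (-0.98 ± 0.27, adjusted p = 0.256). For the difference of diet effects they were dnajb9a, srp9 (-2.01 ± 0.67, adjusted p = 0.292), herpud1 and pdia4 (1.59 ± 0.67, adjusted p = 0.423).

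The members also varied together between arrays of one group. With group means removed, the mean pairwise correlation of the 42 genes over the 17 arrays was 0.48, against 0.005 over all 20908 genes. This is a description, in which technical differences between arrays were not separated from those between livers. The 2 sets differ in brightness. Median log2 signals of the arrays were 7.05 to 10.35 for the members and 2.81 to 4.22 over all genes. Genes of like signal were not compared. hyou1, manf and ufm1 had the highest mean correlation with the other members (0.65 each). The lowest were sec61g (-0.18), ern1 (0.10), dnajb9a (0.13) and pdia3 (0.18).

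Neighbouring genes of the pathway that are not members were read from fixed lists. For the calls with OF below, 0.641% of all genes fell in HBx,src,p53-/+ and 0.488% rose in HBx,src. Of 26 other targeting and translocation genes, srp68, a further subunit of the signal recognition particle, and get3, the ATPase that delivers tail-anchored proteins, rose with OF in HBx,src (log2 fold changes 1.95 and 1.73). spcs1 and sec11a, of the signal peptidase, fell in HBx,src,p53-/+ (-1.15 and -1.40). The medians of that list were -0.50 in HBx,src,p53-/+ and 0.80 in HBx,src. Of 30 other ER chaperones and prolyl isomerases 2 fell with OF in HBx,src,p53-/+, calua, a calcium-binding protein (-1.83), and sil1, an exchange factor of BiP (-2.86), with list medians of -0.44 in HBx,src,p53-/+ and 0.54 in HBx,src. Of 16 other disulfide isomerases and oxidation genes erp44 fell (-0.99) in HBx,src,p53-/+, and of 21 oligosaccharyltransferase and glycan trimming genes ddost fell (-1.31). Of 24 other degradation genes erlec1 fell (-1.75) in HBx,src,p53-/+ while ube2g2 rose in HBx,src (0.96). Medians in HBx,src,p53-/+ and HBx,src were -0.35 and 0.63 for the isomerase list and -0.68 and 0.62 for the glycan list. For the degradation list they were -0.12, with 9 above 0 and 15 below, and 0.74. Of 6 other UFMylation genes 0 passed with OF in either line by limma, with an unadjusted p under 0.05 for 3 in HBx,src,p53-/+ and 4 in HBx,src. Over all 20908 genes 4038 had such a p in HBx,src,p53-/+ and 3340 in HBx,src.

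For the 40 other UPR regulators and targets the median OF contrast was 0.07 in HBx,src,p53-/+, with 21 above 0, and 0.21 in HBx,src, with 26 above 0. The median difference of OF effects between lines was -0.17, and atf4a, which encodes a factor downstream of PERK, was the 1 call in it (-1.65 ± 0.33, adjusted p = 0.0395). mbtps2, the site-2 protease that releases ATF6, and creb3l3b, a liver bZIP factor of the ER membrane, rose with OF in HBx,src,p53-/+ (1.39 and 1.07). In DIO against NOR of that line crebrf, a regulator of the CREB3 factors, rose (2.62) and ppp1r15b, a subunit of the phosphatase that acts on eIF2alpha, fell (-2.22). In DIO+OF against NOR of that line 5 of the 40 rose, where 711 of 20908 genes rose. ppp1r15a (GADD34), the stress-induced subunit of that phosphatase, was 1 of the 5 (4.87 ± 0.96, adjusted p = 0.0153). In that contrast 23 of the 42 members fell, where 2.9% of all genes fell. The other neighbouring lists had 0 rises there. Falls were called for 10 of 26 targeting and translocation genes, 9 of 30 chaperones and prolyl isomerases and 9 of 21 glycan genes. They were also called for 2 of 16 disulfide isomerase and oxidation genes, 2 of 24 degradation genes and 1 of 6 UFMylation genes.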

How the data were processed

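Livers of HBx,src and HBx,src,p53-/+ zebrafish, all labelled as female (in doubt for 1 array, which lacks vitellogenin signal), were profiled on 17 ZebGene 1.1 ST arrays. The authors deposited log2 signals per probe set, made with the Transcriptome Analysis Console, with its version, summarisation, normalisation and build not given in the sources used here. Medians of the arrays differed between batch 1 (HBx,src) and batch 2 (HBx,src,p53-/+), so contrasts lie within a line. The spread of signal differed too, with interquartile ranges of 1.80 to 2.03 in batch 1 and 2.89 to 3.34 in batch 2. Contrasts within a line do not remove this from differences between lines, so sizes of fold changes may not compare across lines. Of 75212 probe sets 30358 had 1 gene symbol, 1015 several and 43839 were not listed. A gene was read from its brightest probe set by mean, and 17 of the 42 members had several.

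The deposited values were fitted with limma 3.58.1 (R 4.3.3), with 1 mean per group over all 17 arrays, empirical Bayes moderation, and Benjamini-Hochberg adjustment over all probe sets, called at 0.05. All fold changes are log2 with standard errors. The code was tested on simulated data. All members are named, with full statistics for those called, or the 4 smallest p where none was called. Of the other lists up to 3 called genes per comparison are named. The members and lists were chosen with earlier results of these data known. Alternatives changed the normalisation, centring, array weights, filter, prior, moderation, probe set, arrays fitted and replicates. Figures were drawn with matplotlib 3.10.9.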

Additional observations from a re-analysis of the deposited data

Results flagged for a closer look

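The effect of OF differed between the lines, by a direct test of the difference (OF effect in HBx,src,p53-/+ minus that in HBx,src, limma, adjusted p under 0.05), for 18 of the 42 ER genes, and this difference is what marked them for a second look. Each difference was below 0 on the log2 scale. Among chaperones and lectins it was -5.00 for hyou1, -4.40 for sdf2l1, -4.74 for calr3b, -2.25 for calr3a and -2.15 for canx, and -3.84 for the isomerase pdia4. Among J proteins it was -5.05 for dnajb9b, -4.99 for dnajc25, -3.60 for dnajb11 and -3.06 for dnajc3a. The sensors had -3.03 for eif2ak3 and -2.53 for atf6, and sel1l, of the degradation machinery, had -3.03. In translocation the values were -4.82 for serp1 and -3.85 for srp14, and creld2, manf and ufc1 had -5.10, -4.94 and -3.90. Line and batch cannot be told apart in these differences. No group held 4 or more arrays, so single arrays were not tested as outliers.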

How the results depend on the processing

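No median log2 fold change of the members moved by more than the spread between arrays (0.51) and 0 single calls reversed. That spread exceeds 2 of the medians, 0.34 for DIO+OF against NOR in HBx,src and 0.41 for the diet difference. Leaving out single arrays took these as low as 0.04 and 0.06, so for them this limit is weak. Of 61 calls of single members, 423 of 531 values under other settings were still called. Counts of members called moved as follows. With OF in HBx,src, 3 calls became 0 with the arrays of the line alone, 6 with quantile normalisation, 8 without the dimmest 40% of probe sets, 8 with only probe sets of 1 symbol, 6 with array weights and 0 without moderation. The share of all genes in the fit that were called moved too, from 0.732% to 0%, 0.952%, 1.51%, 2.25%, 1.02% and 0% in that order. In DIO+OF against NOR in HBx,src, 0 became 1 (dnajb9a) with only probe sets of 1 symbol, while the share of all genes called went from 0.191% to 0.454%. In HBx,src,p53-/+, 15 calls with OF became 8 with the line alone and 0 without moderation, 2 diet calls and 23 calls of DIO+OF against NOR became 0 without moderation, and so did the 18 calls of the OF difference. With OF in this line the share of all genes called went from 2.35% to 0.569% with the line alone. Without moderation at most 0.00478% of all genes were called in these contrasts. With group means removed, correlations of same-numbered arrays ranged from -0.082 to 0.098. Groups of 2 or 3 arrays make this check weak, so it cannot settle whether the replicate numbers mark pairs. A replicate block gave 0 calls with OF in HBx,src and 1 (ufc1) for the OF difference, where 0% and 0.0335% of all genes were called. Where the construction (fewer arrays or probe sets) does not show it, the cause was not tested.

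Leaving out 1 array gave 0 to 20 calls with OF in HBx,src, 0 to 2 for DIO+OF against NOR there, 0 to 3 for diet, 5 to 17 for OF and 6 to 25 for DIO+OF against NOR in HBx,src,p53-/+, 4 to 28 for the OF difference, and 0 for diet in HBx,src and for the diet difference. Members' medians ranged from 1.02 to 1.63, 0.04 to 0.68, -0.74 to -0.53, -1.51 to -1.15, -2.19 to -1.86 and -3.01 to -2.16 in that order, and from -1.13 to -0.62 and 0.06 to 0.49 for the diet in HBx,src and the diet difference. With OF in HBx,src 20 were called without DIO+OF replicate 1, 5 without NOR replicate 2 or 3, 1 without NOR replicate 1, or HBx,src,p53-/+ NOR replicate 1 or 2 or DIO+OF replicate 2, and 0 without DIO or DIO+OF replicate 2 or 3. DIO+OF against NOR gave 2 without DIO+OF replicate 1, where 1.34% of all genes were called in either direction. In HBx,src,p53-/+ the diet gave 1 without DIO replicate 1 or 2, where 1.5% and 1.62% of all genes were called in either direction. OF gave 8 without DIO replicate 3, and 5 and 6 when DIO+OF replicate 2 or 3 was left out. For the diet and for DIO+OF against NOR in this line, fits without either NOR array called fewer members and fewer of all genes. In them the lone NOR array is assumed to vary like the other groups, and the ranges above include them. The OF difference gave 28 without HBx,src DIO+OF replicate 1, 4 without HBx,src DIO replicate 2 or DIO+OF replicate 3, 7 without DIO replicate 3, 6 without DIO+OF replicate 2, and 5, 6 and 5 without HBx,src,p53-/+ DIO replicate 3, DIO+OF replicate 2 and DIO+OF replicate 3. The share of all genes called also moved over the single arrays left out. It ranged from 0.0622% to 5.01% for OF in HBx,src and from 0.698% to 2.53% for OF in HBx,src,p53-/+. For the OF difference the range was 0.0957% to 4.29%. With the fits without a NOR array of HBx,src,p53-/+ set aside, it was 1.5% to 4.15% for the diet in that line. Likewise it was 2.68% to 7.69% for DIO+OF against NOR there. Whichever array was left out, calr3a, pdia4, dnajb11, sec61g and srp14 fell with OF in HBx,src,p53-/+, and dnajc25, srp14, serp1 and ufc1 differed between lines. Detection values were not used here, so dim genes such as ufc1 and dnajb9a have no measured floor.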
